A study of Homo sapiens with 2 samples.

Results

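Oncofetal genes are active in the fetal liver, are largely silent in the adult liver and are switched on again in many hepatocellular carcinomas. The set described here was chosen by name, as 9 such genes: AFP, GPC3, H19, IGF2, IGF2BP1, IGF2BP2, IGF2BP3, LIN28B and DLK1. Values were at hand for 8 of the 9, among 21225 genes measured in all, and H19, an imprinted long non-coding RNA, was not analysed here. The samples were Huh7 cells, an established human hepatoma line, in 1 library from cells given a control shRNA and 1 library from cells given an shRNA against E2F6, with mRNA sequenced in both. E2F6 is a repressor of the E2F transcription factor family that acts in part through a polycomb complex. These libraries are called control and knockdown. The labels give no time after delivery of the shRNA, no clone and no shRNA sequence. With 1 library a group, no test between conditions was possible and no p-value is given, and a difference between these libraries cannot be told apart from a difference between 2 cultures of the same kind.

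AFP is the main plasma protein of the fetus, made from a gene beside the albumin gene. GPC3 is a heparan sulfate proteoglycan anchored to the cell surface, and IGF2 is a fetal growth factor that acts through the IGF1 and insulin receptors. DLK1 is a membrane protein of hepatoblasts that resembles the Notch ligands. The 3 IGF2BP proteins bind mRNAs, IGF2 mRNA among them, and keep many of them stable. LIN28B binds the precursors of the let-7 microRNAs and stops their maturation, and let-7 in turn represses mRNAs of fetal growth genes, LIN28B and the IGF2BP genes included.

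The let-7 sequences are shown because 4 of the 8 measured oncofetal genes carry matches to them. All 8 mature let-7 microRNAs in the RefSeq table (GRCh38.p14) share 1 seed, bases 2 to 8, given here in capitals for 3 of them.
hsa-let-7a-5p: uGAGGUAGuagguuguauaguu
hsa-let-7b-5p: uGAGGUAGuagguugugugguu
hsa-let-7i-5p: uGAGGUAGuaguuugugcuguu

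The reverse complement of the seed, CTACCTC, was searched on the mRNA strand of 1 annotated 3' UTR per gene (GENCODE release 29). It was found in 4 of the 8 measured oncofetal genes, with 10 matches in all: 4 in LIN28B, 4 in IGF2BP1, 1 in IGF2BP2 and 1 in IGF2BP3. AFP, GPC3, IGF2 and DLK1 held none. Among 9625 expressed protein-coding genes, 10.2% held a match, and their 3' UTRs were longer, with a median of 2712 bases against 994 in genes without one. Of the 4 oncofetal genes with a match, the 3' UTRs ran from 1792 to 6206 bases, and of those without, from 379 to 3875. The windows run 5' to 3' on the mRNA strand with the match in capitals, 1 for each of these 4 genes, and for LIN28B and IGF2BP1 the match nearest to the stop codon was taken.
LIN28B: acccggttgcaaagtCTACCTCatgca
IGF2BP1: tgtgtgcgaagtaaaCTACCTCaaggt
IGF2BP2: aacacacagaagaagCTACCTCaggtg
IGF2BP3: tgcatttttactcaaCTACCTCaggta

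Of the 10 matches, 7 are followed by A, the letter that often flanks a let-7 site, the 4 shown among them, and 3 are not. The match in LIN28B begins at base 44 of a 3' UTR of 4549 bases, and that in IGF2BP3 at base 560 of 2153. The microRNAs themselves were not analysed here, and a match describes the letters only.

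E2F6 itself was listed at 2.54 FPKM (fragments per kilobase of transcript, scaled to the depth of the library) in the control and 0.997 FPKM after E2F6 shRNA, 39.3% of the control (95% counting interval of the ratio 0.258 to 0.593). Its difference in log2(FPKM + 1) was -0.82, so E2F6 was not called by the rule given with the results. The control listed 11705 genes and the knockdown library 11373 genes at 1 FPKM or more, and the steps between low values put the totals behind them at 17139197 and 14724853 reads. Intervals given here cover counting error only. Of the 7 liver markers ALB, APOB, SERPINA1, TTR, APOA2, KRT8 and KRT18, all were above 74 FPKM in both libraries, and APOB (318 and 138 FPKM) and ALB were called lower by the rule given with the results. A mean of 1 FPKM was reached by 3 of 8 fibroblast and stellate cell markers, 1 of 8 endothelial markers and 2 of 8 macrophage markers, none of which was called. Their summed levels were 40.2 and 60.9 FPKM, 1.53 and 2.83 FPKM, and 243 and 136 FPKM in the control and the knockdown library, LYZ making up most of the last pair at 240 and 133 FPKM. The part of such cells in the results was not tested.

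None of the 8 oncofetal genes differed by 2-fold between the libraries. A gene was called higher or lower where its difference, the knockdown value of log2(FPKM + 1) less the control value, was at least 1 in size and the mean was at least 1 FPKM. All 8 had a mean of at least 1 FPKM, 0 were called higher and 0 lower. Among 11574 genes tested, 1.17% were called higher and 2.06% lower, so few genes of any kind were past this size. The difference was below 0 for 6 of the 8 and above 0 for 2. Their median difference was -0.33, beside -0.0021 for all genes tested, whose quartiles were -0.28 and 0.23. In bulk RNA, fewer cells expressing a gene and less of its RNA per cell cannot be told apart.

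**Figure D1:**
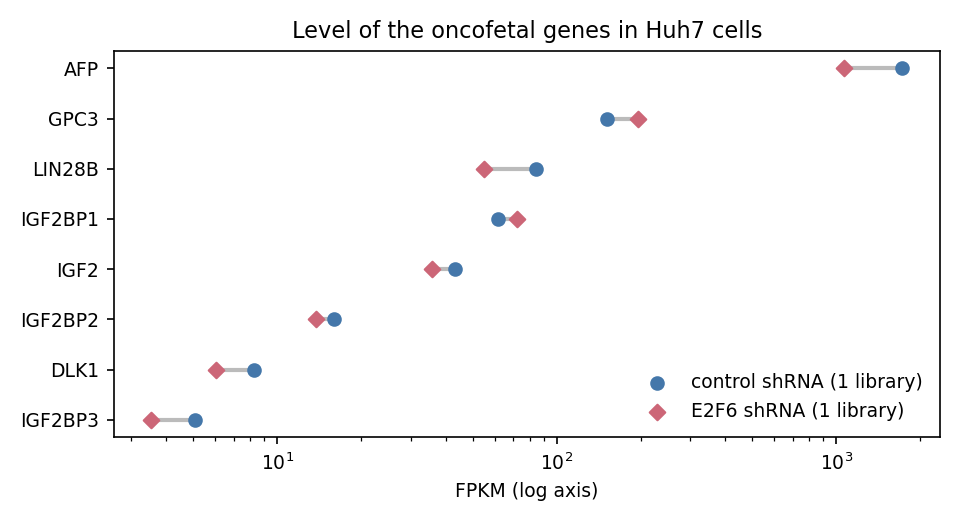
FPKM of the 8 oncofetal genes on a log axis, with a circle for the control library and a diamond for the knockdown library, 1 library each. AFP stands far above the others at 1721 and 1064 FPKM, and LIN28B and IGF2BP1 trade places between the libraries.

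The levels spanned a wide range per length of transcript. AFP was the highest of the set at 1721 FPKM in the control library and 1064 FPKM in the knockdown library, rank 12 and rank 25 of 21225 genes. GPC3 followed at 151 and 195 FPKM, and IGF2BP3 was the lowest at 5.07 and 3.54 FPKM. AFP made up 82.3% of the summed FPKM of the 8 genes in the control and 73.6% in the knockdown library. The order of the genes was AFP, GPC3, LIN28B, IGF2BP1, IGF2, IGF2BP2, DLK1, IGF2BP3 in the control. In the knockdown library only LIN28B and IGF2BP1 changed places, at 55.1 and 71.8 FPKM. There is no replicate spread to set against these levels.

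Of the secreted and surface proteins, AFP had the most negative difference as deposited, though DLK1 and IGF2 lay below it once the trend of the differences with the GC content of transcripts was removed. Its level in the knockdown library was 0.618 of that in the control (95% counting interval 0.606 to 0.630), a difference of -0.69. Of all genes tested, 6.16% had a lower difference. AFP is thus 1.62-fold lower between these libraries without reaching the 2-fold rule. The values rest on about 28695 and 15239 reads, so counting error is small here.

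ALB, the albumin gene next to AFP on chromosome 4 and its adult counterpart, was called lower, at 173 FPKM in the control library and 77.6 FPKM in the knockdown library. Its ratio was 0.449 (0.420 to 0.480). With the GC trend removed its difference was -0.90 in place of -1.15, short of the rule. The ratio of AFP to ALB was therefore 9.96 in the control and 13.7 in the knockdown library. GC, the vitamin D-binding protein gene of the same family, was at 44.4 and 27.6 FPKM, a difference of -0.67. AFM (afamin), on the other side of AFP, was below 1 FPKM in both libraries. Of this cluster of 3 genes besides AFP, 1 of the 2 tested was called lower and 0 higher, with a median difference of -0.91.

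Of 16 AFP regulators tested, 2 were called higher, 1 lower and 13 neither, with a median difference of -0.04. CEBPA, a factor that activates AFP and albumin, went from 202 FPKM in the control to 67.8 FPKM in the knockdown, a ratio of 0.336 (0.321 to 0.350). HNF4A, a master factor of hepatocytes, was at 4.56 and 15.3 FPKM, a ratio of 3.36 (2.85 to 3.96). GATA6, an endoderm factor, was at 6.12 and 14.02 FPKM, a ratio of 2.29 (1.998 to 2.65), and its difference of 1.08 came to 0.92, short of the rule, with the GC trend removed. ZHX2 and ZFHX3, repressors of AFP, had 13.5 and 12.5 FPKM, and 3.60 and 2.69 FPKM, and neither was called.

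GPC3 had the highest difference of the set, 0.37, at 151 FPKM in the control library and 195 FPKM in the knockdown library. The ratio was 1.298 (95% counting interval 1.25 to 1.35), and 13.7% of all genes tested had a higher difference. The difference of GPC3 was thus opposite in sign to that of AFP, another marker of hepatoma, each of less than 2-fold. A processed pseudogene inside GPC3, at 28.3 and 31.8 FPKM, overlaps it on the other strand, and whether reads were assigned by strand is not given in the sources used here.

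Of the other glypicans only GPC6 reached a mean of 1 FPKM, at 8.51 FPKM in both libraries (difference -0.0004). GPC4, the neighbour of GPC3 on chromosome X, was listed at 0 FPKM in the control and at 0.0548 FPKM in the knockdown library. Of 10 glypican and heparan sulfate genes tested, 1 was called lower, 0 higher and 9 neither, with a median difference of 0.22. The one called was HS2ST1, a heparan sulfate 2-O-sulfotransferase that modifies the chains glypicans carry, at 40.2 and 15.7 FPKM (ratio 0.390, 0.357 to 0.426). Its difference of -1.304 came to -0.95, short of the rule, with the GC trend removed. NDST1, which starts the sulfation of these chains, was at 4.83 and 6.37 FPKM. NOTUM, an enzyme that inactivates Wnt proteins and acts on glypicans, was at 1.77 and 2.85 FPKM.

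IGF2 was at 43.4 FPKM in the control library and 35.7 FPKM in the knockdown library, a difference of -0.27 and a ratio of 0.823 (0.772 to 0.877). This lay just inside the quartiles of all genes. IGF2-AS, the antisense gene that overlaps IGF2, was at 0.477 and 0.902 FPKM, and without a stated strand the reads of the pair cannot be told apart.

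Of the genes of binding proteins of IGF2, IGFBP5 and IGFBP3 were past the rule, unlike IGF2, and IGFBP2, IGFBP4 and IGFBP6 were not. Of 10 IGF signalling and binding protein genes tested, 2 were called higher, 0 lower and 8 neither, with a median difference of 0.09. IGFBP5 went from 1.57 FPKM in the control to 7.52 FPKM in the knockdown, a ratio of 4.78 (3.66 to 6.36). IGFBP3 was at 2.17 and 6.12 FPKM, a ratio of 2.82 (1.96 to 4.08). Both bind IGF2 outside the cell, and both had a mean below 5 FPKM. IGFBP4 was at 29.1 and 25.2 FPKM, a ratio of 0.866 (0.790 to 0.949). IGFBP2 was at 10.5 FPKM in both libraries and IGFBP6 at 1.77 and 2.16 FPKM. IGFBP7, a distant relative, was at 2.64 and 0.891 FPKM, a difference of -0.94, short of the rule, and was past it, at -1.03, with the GC trend removed and at -1.47 with a pseudocount of 0.1. Among the receptors, IGF2R, which takes IGF2 up for degradation, was at 25.1 and 33.4 FPKM and the insulin receptor gene INSR at 5.79 and 4.98 FPKM. IGF1R, at 1.00024 and 0.894 FPKM, had a mean below 1 FPKM and was not among the genes tested. The adaptor gene IRS1 was at 14.9 and 12.4 FPKM.

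IGF2 and DLK1 are imprinted, that is, expressed by parental origin, in their case from the paternal copy. DLK1 was at 8.25 FPKM in the control library and 6.04 FPKM in the knockdown library, a difference of -0.39 and a ratio of 0.732 (0.587 to 0.912), on about 216 and 136 reads. Of 9 other imprinted genes tested, none was called, 4 differences were above 0 and 5 below, and the median was -0.06. PHLDA2, a growth-limiting placental gene from the same chromosome region as IGF2, had the lowest difference, -0.88, at 17.5 and 9.10 FPKM (-1.02, past the rule, with the GC trend removed), and SLC22A18 beside it was at 3.40 and 2.14 FPKM. MEST had the highest, 0.43, at 9.26 and 12.8 FPKM. Of 4 genes that maintain imprints, none was called, and the median difference was 0.13. CTCF, the insulator protein of the IGF2 and H19 region, was at 25.1 and 27.8 FPKM, and UHRF1, which brings DNMT1 to replicated DNA, at 4.46 and 6.94 FPKM. DNMT1 was at 10.7 and 10.9 FPKM and TRIM28 at 32.8 and 35.8 FPKM.

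Of 8 Notch pathway genes tested, whose receptors DLK1 is reported to bind, none was called, and the median difference was 0.12. JAG1, a Notch ligand, was at 12.8 and 20.2 FPKM and the Notch target HES1 at 15.1 and 21.03 FPKM. ADAM10, a protease that cleaves Notch receptors, was at 9.23 and 4.85 FPKM, and RBPJ, the DNA-binding partner of Notch, at 4.84 and 2.53 FPKM.

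Of the RNA-binding proteins, LIN28B had the lowest difference as deposited, though IGF2BP3 was lower, at -0.33 against -0.29, with GC and length trends removed. It was at 84.6 FPKM in the control library and 55.1 FPKM in the knockdown library, a ratio of 0.651 (95% counting interval 0.620 to 0.685) and a difference of -0.61, with 8.58% of all genes tested lower. Its relative LIN28A was not analysed here. HACE1, the gene before LIN28B on chromosome 6, was at 1.304 and 0.510 FPKM, below the minimum mean, and BVES, the gene after it, at 4.54 and 4.81 FPKM.

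**Figure D2:**
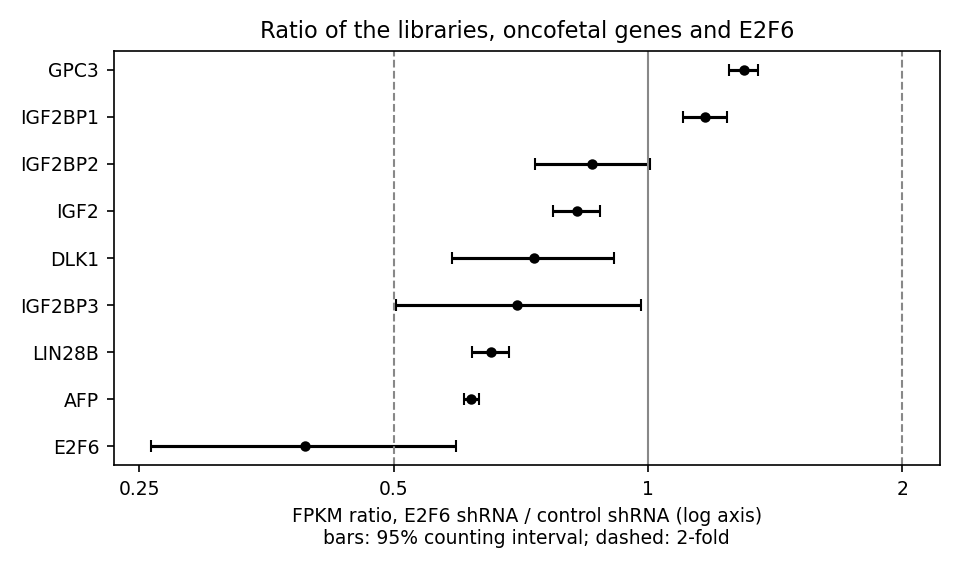
FPKM in the knockdown library divided by that in the control library, on a log axis, for the 8 oncofetal genes and E2F6. Points are the ratios of the 2 libraries, bars the 95% counting intervals and dashed lines 2-fold. The points of the 8 genes lie between 0.618 and 1.298, inside the dashed lines, and E2F6 lies at 0.393.

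None of 12 let-7 processing genes tested was called, and their median difference was -0.05. ZCCHC6 (TUT7), a uridylyl transferase of let-7 precursors, was at 3.34 and 1.71 FPKM, a difference of -0.68, and AGO1, an Argonaute protein, was at 15.1 and 9.66 FPKM, a difference of -0.60. ZCCHC11 (TUT4), which LIN28 proteins recruit, was at 2.32 and 1.65 FPKM and DICER1, which cuts the precursor, at 2.52 and 1.53 FPKM. At the upper end, TARBP2, a partner of DICER1, was at 2.74 and 4.58 FPKM, and DIS3L2, the nuclease that degrades tailed let-7 precursors, was at 1.12 and 1.39 FPKM.

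Among 13 genes known as let-7 targets, none was called, 6 differences were above 0 and 7 below, and the median was -0.03. The lowest was MYCN at 44.8 and 26.05 FPKM (-0.76), with no CTACCTC match in the 3' UTR used. HMGA2, with 4 matches, was at 13.4 and 9.70 FPKM, and TRIM71, with 6, at 46.7 and 38.003 FPKM. At the other end stood ARID3B at 6.73 and 12.6 FPKM (0.81), with 1 match, and CDC25A, with 2, at 23.99 and 41.7 FPKM (0.77). The targets thus lay on both sides of 0. Over the 9625 expressed protein-coding genes searched, the 982 with a match had a median difference of -0.03 and the others -0.0048.

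The differences of the IGF2BP genes, a family of close relatives, did not share a sign. IGF2BP1 was at 61.5 FPKM in the control library and 71.8 FPKM in the knockdown library, a ratio of 1.17 (1.10 to 1.24). IGF2BP2 was at 15.98 and 13.7 FPKM, a ratio of 0.860 (0.735 to 1.01), the only one of the 8 genes whose counting interval included 1. IGF2BP3 was at 5.07 and 3.54 FPKM, a ratio of 0.699 (0.503 to 0.982), on about 99 and 60 reads. The differences were 0.22, -0.20 and -0.42. Of the summed FPKM of the family, 82.5 in the control and 89.1 in the knockdown library, IGF2BP1 made up 74.5% and 80.6%, IGF2BP2 19.4% and 15.4%, and IGF2BP3 6.14% and 3.98%. IGF2BP1 and LIN28B, with 4 let-7 matches each, had differences of opposite sign.

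One promoter window of IGF2BP2, from 250 bases before to 50 after the start site, is shown because it alone holds an E2F core motif. The table held 7 windows of 5 oncofetal genes, AFP, LIN28B, IGF2BP2, IGF2BP3 and H19. Capitals mark TCCCGCC, the reverse complement of GGCGGGA, which begins 221 bases before the start site (RefSeq, GRCh38.p14, chr3:185824993-185825292, minus strand, printed in the direction of the gene).
IGF2BP2: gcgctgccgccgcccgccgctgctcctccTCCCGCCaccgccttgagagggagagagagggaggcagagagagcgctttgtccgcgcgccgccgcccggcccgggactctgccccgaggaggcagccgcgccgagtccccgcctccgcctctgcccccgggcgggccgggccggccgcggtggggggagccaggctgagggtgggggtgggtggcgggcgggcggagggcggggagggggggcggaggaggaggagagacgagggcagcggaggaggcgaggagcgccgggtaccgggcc

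Of its letters, 80.7% are G or C. Over 35116 promoter windows of the same length, GGCGGGA was found on either strand in 15.4% and the other core searched, GGCGCGA, in 5.20%. No window of the oncofetal genes held GGCGCGA.

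None of 20 IGF2BP partners and genes of the m6A machinery was called, m6A being the mRNA mark that IGF2BP proteins read. With a pseudocount of 0.1, MATR3 (-1.04) and METTL14, a subunit of the m6A writer (-1.06), were past the rule. METTL14 was at 1.79 and 0.808 FPKM, a ratio of 0.452 (0.288 to 0.691). Of the 20, 15 had differences below 0 and the median was -0.21, which came to -0.01 with the GC trend removed and 0.0024 with GC and length trends removed. SYNCRIP, an RNA-binding partner of IGF2BP1, was at 29.1 and 17.8 FPKM (-0.68). MATR3 was at 4.22 and 2.003 FPKM, an uncertain value since a second row carried the same name. HNRNPU and YBX1, which bind mRNA together with IGF2BP1, had 69.7 and 61.2 FPKM, and 352 and 329 FPKM. At the upper end stood ELAVL1 at 11.4 and 15.2 FPKM and the m6A demethylase gene ALKBH5 at 21.9 and 25.2 FPKM.

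**Figure D3:**
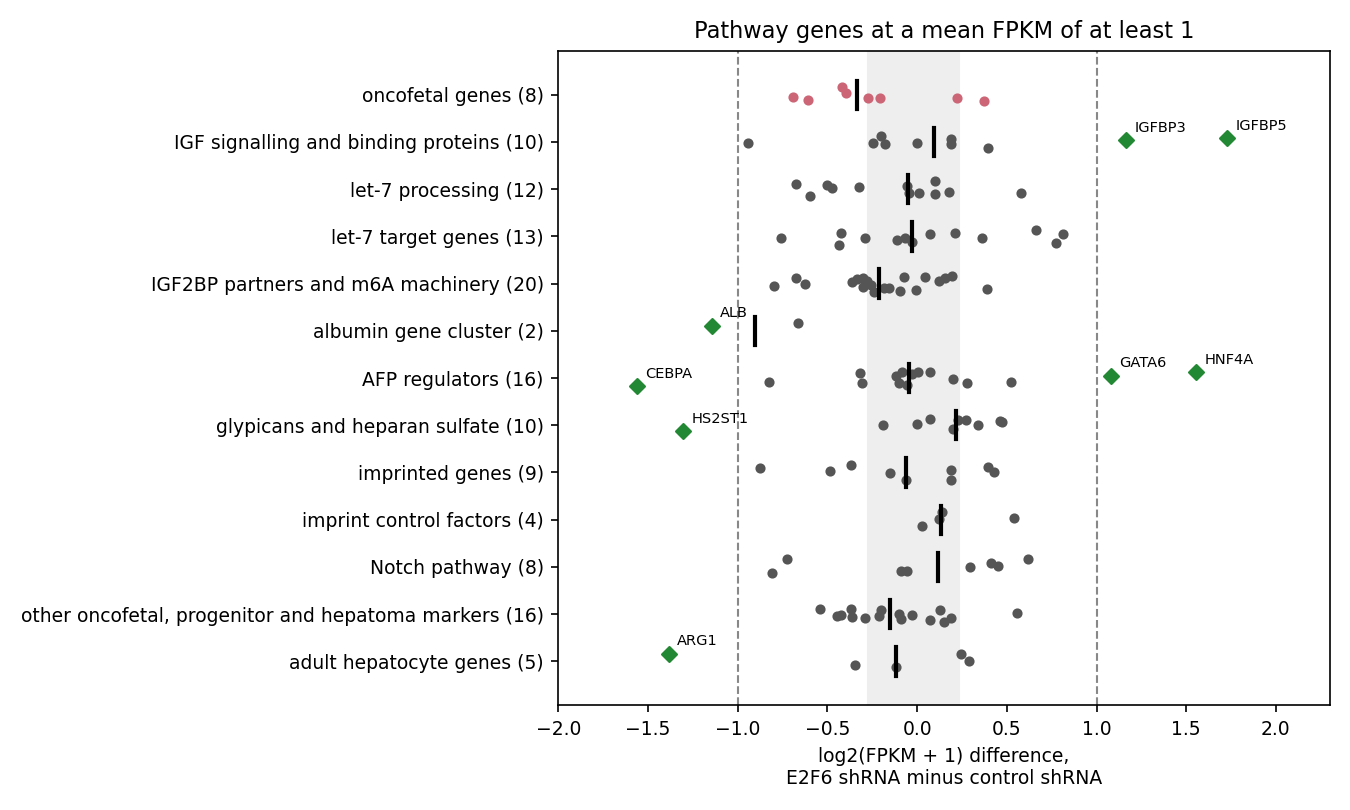
Each point is 1 gene with a mean FPKM of at least 1, placed by its log2(FPKM + 1) difference between the libraries, for the 8 oncofetal genes and 12 groups of related genes (number of genes in brackets). Black bars are medians, the grey band the range between the quartiles of all genes tested, dashed lines the 2-fold rule, and green diamonds the genes past it. IGFBP3, IGFBP5, GATA6 and HNF4A lie above the rule and ALB, CEBPA, HS2ST1 and ARG1 below it, of which GATA6, ALB and HS2ST1 fell short with the GC trend removed.

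Other markers of fetal liver, progenitors and hepatoma also stayed short of the rule. Of 16 tested, none was called, 11 had differences below 0 and the median was -0.15. GOLM1, a Golgi protein released by hepatoma cells, was at 35.5 and 24.1 FPKM (-0.54), and EPCAM, a surface marker of progenitor cells, at 19.1 and 13.7 FPKM (-0.45). KRT19, a keratin of bile duct and progenitor cells, was at 82.9 and 122 FPKM (0.56), and the adhesion gene CDH17 at 33.4 and 38.2 FPKM. MDK (midkine), another serum marker, was at 38.5 and 29.7 FPKM and SALL4, a fetal liver transcription factor, at 1.03 and 0.985 FPKM.

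Of 15 adult hepatocyte genes listed, 12 had values and 5 reached a mean of 1 FPKM, of which 1 was called lower and 0 higher, with a median difference of -0.12. The one called was ARG1, the arginase of the urea cycle, at 16.5 FPKM in the control library and 5.72 FPKM in the knockdown library. APOA1, the main apolipoprotein of high-density lipoprotein, was at 379 and 448 FPKM, TTR at 74.6 and 91.3 FPKM and SERPINA1 at 151 and 139 FPKM. The adult enzymes TAT, TDO2, CPS1 and CYP2E1 were below 1 FPKM in both libraries, while the fetal AFP was at 1721 and 1064 FPKM.

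The genes beside the oncofetal genes were mostly not called either. Of 15 tested among the pair of measured genes on each side of each member, 1 was called lower, ALB (not so with the GC trend removed), and 0 higher, and the median difference was -0.07. The lowest difference after that of ALB was -0.93, for RP11-168L7.1 after DLK1, at 3.52 and 1.37 FPKM (ratio 0.388, 0.161 to 0.850). The highest was 0.74, for the pseudogene AC079780.3 after IGF2BP3, at 4.51 and 8.20 FPKM (ratio 1.82, 0.933 to 3.65). ETV5, on the far side of TRA2B from IGF2BP2, was at 15.6 and 10.2 FPKM, and SENP2, before IGF2BP2, at 9.54 and 9.92 FPKM. HS6ST2, a heparan sulfate 6-O-sulfotransferase gene beyond GPC4 from GPC3, was at 4.97 and 4.83 FPKM.

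The differences of all genes went with the GC content of their transcripts, and AFP and LIN28B lie at the low end of it. Their transcripts held 40.4% and 40.9% G and C, and the median difference of the 1153 tested genes of like GC content (39.8 to 42.02%) was -0.29. Of the genes named above, ADAM10, RBPJ and ZCCHC6, at 40.5%, 40.8% and 40.4%, lay in this range too. SYNCRIP, at 38.3%, lay among genes with a median difference of -0.40. With the trend removed by a lowess fit, AFP was at -0.39 in place of -0.69 and LIN28B at -0.33 in place of -0.61. DLK1 and IGF2, at 59.01% and 59.1% among genes with a median of 0.16, moved the other way, to -0.55 and -0.43. IGF2BP1 came to 0.11 in place of 0.22. After this correction DLK1, not AFP, had the lowest difference of the 8, and the same 6 genes stayed below 0. The part of GC content in these differences was not tested.

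**Figure D4:**
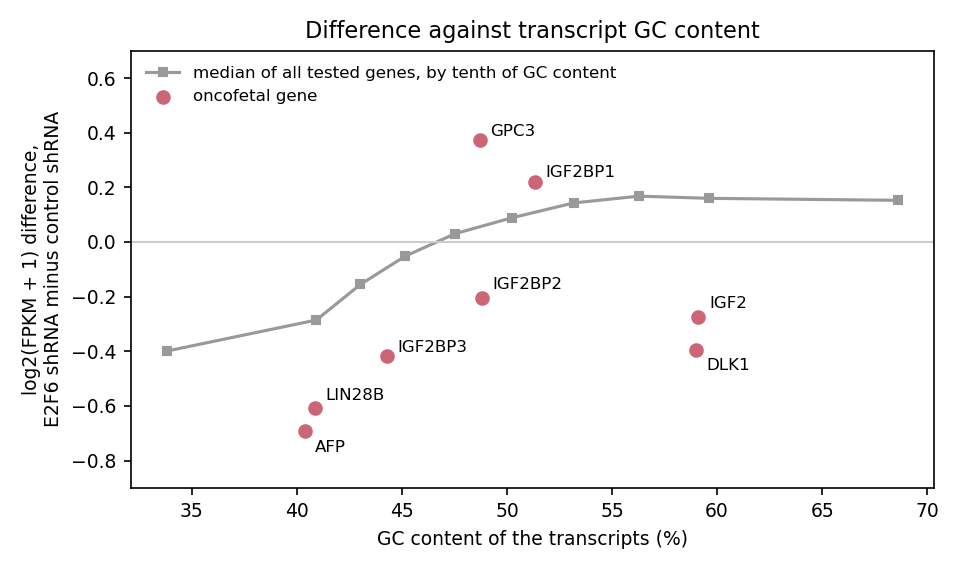
Difference in log2(FPKM + 1) between the libraries against the GC content of the transcripts. Red points are the 8 oncofetal genes, and grey squares the median of all tested genes in 10 bins of GC content, placed at the midpoint of each bin. The 6 genes with a negative difference lie below the grey line and GPC3 and IGF2BP1 above it.

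**Figure D5:**
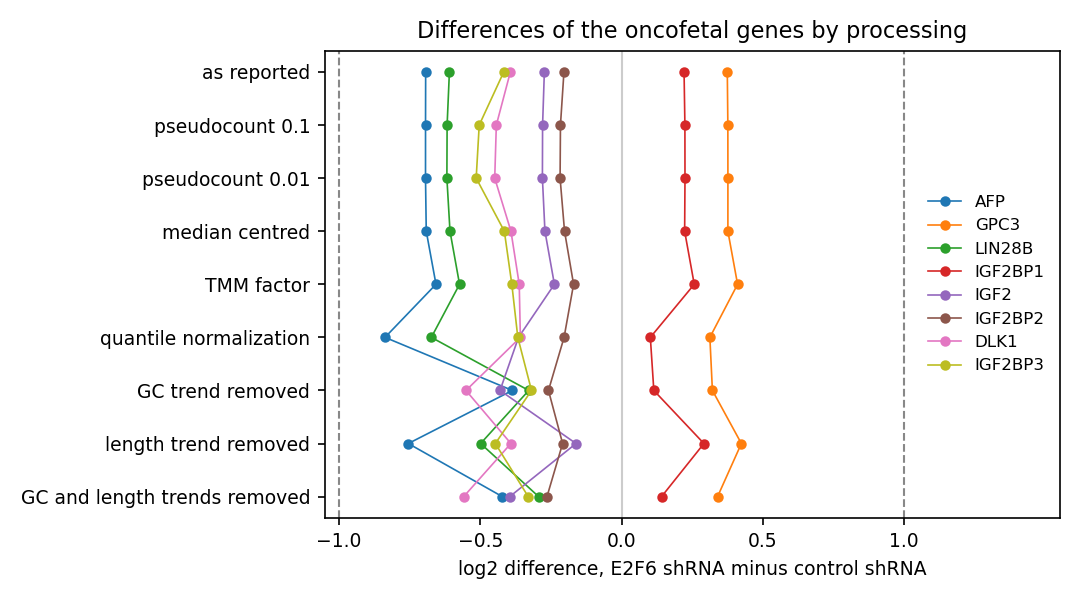
Log2 difference of each oncofetal gene as reported and under 8 other ways of processing, with dashed lines at the 2-fold rule. No line crosses 0 or reaches a dashed line, and AFP has its lowest value, -0.84, under quantile normalization.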

How the data were processed

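The authors deposited 1 gene table per library. The file headers name the library only, and the unit was read from the values as FPKM, scaled by the authors per kilobase and for depth. For genes with 1 annotated transcript, 97.6% and 97.3% of values above 0, times length, lay within 0.01 of a whole multiple of 1 step, which gave the totals, and the columns summed to 235513 and 245097, unlike TPM. Per the submitters' processing notes, HISAT2 2.0.4, StringTie 1.3.0 and the build GRCh37 were used, and their settings, the annotation and the strand rule are not given in the sources used here.

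Of 21227 rows a table, 2 without a gene ID or value were dropped. GENCODE release 29 (GRCh38), which held 21047 of the IDs, gave transcript lengths, GC content, neighbours and 3' UTRs, and RefSeq gave the printed sequences. Reads behind a value were estimated from the mean transcript length, and ratios have exact conditional binomial 95% intervals. These are approximate for genes with several transcripts. The pseudocount of 1 shrinks the differences of low genes.

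The members and the 16 gene lists (201 genes, 130 tested) were chosen with earlier results of these data known. Named genes were the members, E2F6, neighbours, and from each list the genes past the 2-fold rule or, with none or over 4 past it, the 2 highest and 2 lowest differences. Others were named after their values were seen, as was the let-7 search added. A few genes that this rule names are not reported here. Procedures were tested on simulated data. Values were computed with statsmodels 0.14.6, scipy 1.17.1, numpy 2.4.6 and pandas 2.3.3 in Python 3.11.15 and drawn with matplotlib 3.10.9.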

Additional observations from a re-analysis of the deposited data

How the results depend on the processing

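The same 6 members were below 0 and the same 2 above 0, and none was past the 2-fold rule, with pseudocounts of 0.1 and 0.01, centring, a trimmed-mean (TMM) factor (30% and 5% trimmed), quantile normalization, and the GC and length trends removed singly or together. Quantile normalization put IGF2BP1 at 0.10, and the length trend removed put IGF2 at -0.16. With both trends removed LIN28B was at -0.29, above IGF2BP3 at -0.33. A 1.5-fold threshold on the differences as reported called 2 of the 8 members lower, AFP and LIN28B. Among the 11574 genes tested it called 585 higher and 1080 lower, in place of 135 and 239. With the GC trend removed, AFP at -0.39 and LIN28B at -0.33 were short of 1.5-fold. By the 2-fold rule, the counts over all genes were 269 and 522 with a pseudocount of 0.1, and 290 and 584 with 0.01. They were 67 and 128 at a mean FPKM of at least 5, where fewer genes were tested. In the lists, 4 genes were called higher and 5 lower, with 8 lower at either smaller pseudocount (IGFBP7, MATR3 and METTL14 added) and 2 higher at the minimum of 5. With the GC trend removed, alone or with length, 3 were higher and 5 lower: GATA6, ALB and HS2ST1 were no longer called, and IGFBP7 and PHLDA2 were called lower. E2F6 reached -1.27 and -1.34 with pseudocounts of 0.1 and 0.01, past the rule. With the longest transcript in place of the mean length, the interval of IGF2BP2 was 0.781 to 0.946, below 1. If a step is 1 read of a pair, an alternative added after seeing the data, the intervals of IGF2BP3 (0.429 to 1.12) and DLK1 (0.533 to 1.002) include 1. List medians changed sign in some settings for the IGF, let-7 target, AFP regulator, imprinted, Notch and adult hepatocyte lists, and for the IGF2BP partners, from -0.21 to 0.0024, with both trends removed. No paired analysis was possible because there is only 1 library for either shRNA.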
